A study of Mus musculus with 16 samples.

Results

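The baseline map of single-strand breaks in wild type mouse embryonic stem cells was described here from the peaks called in cells given DMSO, the solvent control. All peaks on chromosomes 1 to 19 were taken, 28243 of the 28559 in the wild type DMSO list and of 103545 over all conditions of the series. The cells were of strain C57BL/6JRj, wild type for Tdg, and grew without serum in 2i medium and LIF (1000 U/ml), conditions that keep a naive state. The labels' growth protocol describes 5 µM 4-OHT for 2 h to excise a Tdg minigene. The labels do not say whether the wild type cells received it, or for how long DMSO was given. Breaks were marked by SSB-seq: E. coli DNA polymerase I was let into genomic DNA for 1 min at 16 °C with digoxigenin-dUTP and chain-terminating ddNTPs. Labelled fragments were then pulled down with an antibody to digoxigenin. The 3 IP libraries of this group were pooled by the authors into 1 value per peak and set against 1 input library, so the replicate spread is unknown for every value and no difference was tested. Intervals are 95% counting intervals, which leave out differences between cultures and libraries and the choice of the peaks themselves.

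A single-strand break is a gap or nick in 1 strand of the double helix. Such breaks arise from oxidative attack on the sugar, from topoisomerase 1 trapped on DNA, and as intermediates when base excision repair removes a damaged or modified base. In that repair a glycosylase such as TDG takes out the base, APEX1 cuts the backbone, PARP1 senses the nick, and DNA polymerase β, XRCC1 and a DNA ligase close it. Polymerase I starts from a free 3′ hydroxyl end, so SSB-seq reads ends that can be extended, whatever made them.

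The pooled IP held 87.0 M tags and the input 38.1 M. Signal is given as the normalized tag count, IP tags per 10000000, and as density, that count per kb of peak. The mean density over the sequenced genome was 3.78 per kb. The peaks covered 21.6 Mb, 0.902% of the sequenced bases, and held 2.18% of the IP tags and 0.403% of the input tags. Peak length ran from 500 bp, the length of 44.9% of peaks, to 9645 bp. Normalized tags ran from 2.41 to 178.0 with a median of 4.83, which is 42.02 IP tags, and the 10% of peaks with most tags held 32.1% of them. Median density was 7.56 per kb, 2.00 times the IP's genome mean. Input density at the same peaks had a median of 0.417 times the input's own mean, from 3.5 input tags. Every peak had a fold over input of at least 4, and 71.3% were below 6.

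The 200 bases at the centre of 6 peaks are shown as examples. They set peaks of high IP density at ordinary input against peaks that are high in input too. Lower case letters are reference sequence from GRCm38, the assembly behind mm10, on the + strand from 5′ to 3′, and capitals mark CpG dinucleotides. The first 3 are the peaks of highest density in promoters, gene bodies and distal DNA among those with input at most 1.5 times its mean, a limit chosen after the values were seen. The next 2 are the highest gene body and distal peaks of all, and the last is the highest promoter peak with fewer than 3 input tags.
Cactin promoter, chr10:81320784-81320983: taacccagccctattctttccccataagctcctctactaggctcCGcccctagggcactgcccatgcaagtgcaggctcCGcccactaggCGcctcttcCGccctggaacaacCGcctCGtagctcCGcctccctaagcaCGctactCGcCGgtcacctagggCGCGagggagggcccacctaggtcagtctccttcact
Ltbp4 intron, chr7:27330984-27331183: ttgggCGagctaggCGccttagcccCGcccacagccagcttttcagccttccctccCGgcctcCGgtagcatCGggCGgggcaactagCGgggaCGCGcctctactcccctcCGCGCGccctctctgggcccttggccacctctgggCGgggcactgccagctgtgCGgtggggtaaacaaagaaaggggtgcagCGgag
distal, nearest coding start Wnt7b, chr15:85634572-85634771: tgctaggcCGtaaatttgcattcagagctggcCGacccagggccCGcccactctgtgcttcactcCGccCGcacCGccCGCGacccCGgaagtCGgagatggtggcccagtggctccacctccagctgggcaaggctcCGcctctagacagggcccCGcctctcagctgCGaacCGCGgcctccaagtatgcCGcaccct
Lama1 intron, chr17:67741135-67741334: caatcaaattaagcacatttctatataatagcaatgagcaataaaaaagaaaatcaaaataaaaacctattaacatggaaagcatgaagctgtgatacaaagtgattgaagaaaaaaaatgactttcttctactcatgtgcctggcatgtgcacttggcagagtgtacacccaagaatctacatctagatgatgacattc
distal, nearest coding start Kcnh5, chr12:74804528-74804727: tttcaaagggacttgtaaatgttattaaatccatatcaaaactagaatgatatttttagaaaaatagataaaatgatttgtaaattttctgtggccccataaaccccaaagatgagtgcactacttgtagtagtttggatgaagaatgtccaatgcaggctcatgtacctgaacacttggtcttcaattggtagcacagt
Arid1a promoter, chr4:133754250-133754449: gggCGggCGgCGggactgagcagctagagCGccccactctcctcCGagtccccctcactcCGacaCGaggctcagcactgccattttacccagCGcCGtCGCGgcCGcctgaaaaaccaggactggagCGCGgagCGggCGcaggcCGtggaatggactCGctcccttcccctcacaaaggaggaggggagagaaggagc
The Cactin, Ltbp4, Wnt7b and Arid1a stretches held 12, 16, 16 and 18 CpG dinucleotides and had a GC content of 63.5% to 69.5%. The Lama1 and Kcnh5 stretches held 0 CpG and had a GC content of 33% and 34%. This contrast in composition belongs to the stretches printed and not to high input as such. The peak nearest Plk2 had 0.798 CpG per 100 bp at 15.4 times the input mean. The Hjurp and Alkbh5 promoter peaks had 8.98 and 10.2 at 3.68 and 2.54 times. The GC box letters GGGCGG, read on both strands and counted without overlap, occurred 3 times in each of the first 3 stretches. They occurred once in Arid1a, where a further copy overlaps the one counted, and not in Lama1 or Kcnh5.

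With every annotated transcript start counted, promoters carried the most signal of the classes. Each peak was classed by its centre, and the promoter window reached from 1 kb before to 100 bp after any annotated transcript start. With this window promoters held 8690 peaks, 30.8% of the total (Wilson interval 30.2% to 31.3%), in 3.73% of the bases, and 49.6% of the tags in peaks. Gene bodies held 12207 peaks, 43.2%, in 46.0% of the bases, with 32.6% of the tags. Flanks, within 5 kb of a gene, held 2759 peaks and 6.95% of the tags. Distal DNA held 4587 peaks, 16.2%, in 41.0% of the bases, with 10.9% of the tags. Per base, peaks were thus 8.24 times as frequent in promoters as over chromosomes 1 to 19, 0.94 times in gene bodies and 0.396 times in distal DNA. Inside genes, exons stood at 2.19 times and introns at 0.811 times. The order of the classes depends on the annotation: with 1 start per protein-coding gene, promoters held 16.6% of peaks and 29.4% of tags, and gene bodies 56.3% and 51.5%.

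Promoter peaks were also denser and longer. Their median density was 11.1 per kb (11.04 to 11.3; quartiles 8.24 and 14.9) and their median length 885 bp. Gene body peaks had a median of 7.01 per kb (6.93 to 7.02), flank peaks 7.02 and distal peaks 6.78, and in each of these classes the median length was the 500 bp minimum. Peaks centred in exons had 7.58 per kb and those in introns 6.90. Input at the peaks was 0.556 times its genome mean at the median promoter peak, from 7 tags, and 0.361 times in gene bodies and 0.347 times in distal DNA, each from 3 tags. The authors' fold over input had medians of 5.21 in promoters, 5.10 in gene bodies, 5.01 in flanks and 5.13 in distal DNA. Since a peak was listed only at a fold of at least 4, one of low IP density could enter only at low input, and neither the nearly equal folds nor the input levels compare the classes beyond that limit. CpG density was higher in promoter peaks as well, at a median of 6.06 per 100 bp against 1.60 in gene bodies and 1.36 in distal DNA, and its part in both densities was not tested.

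**Figure D1:**
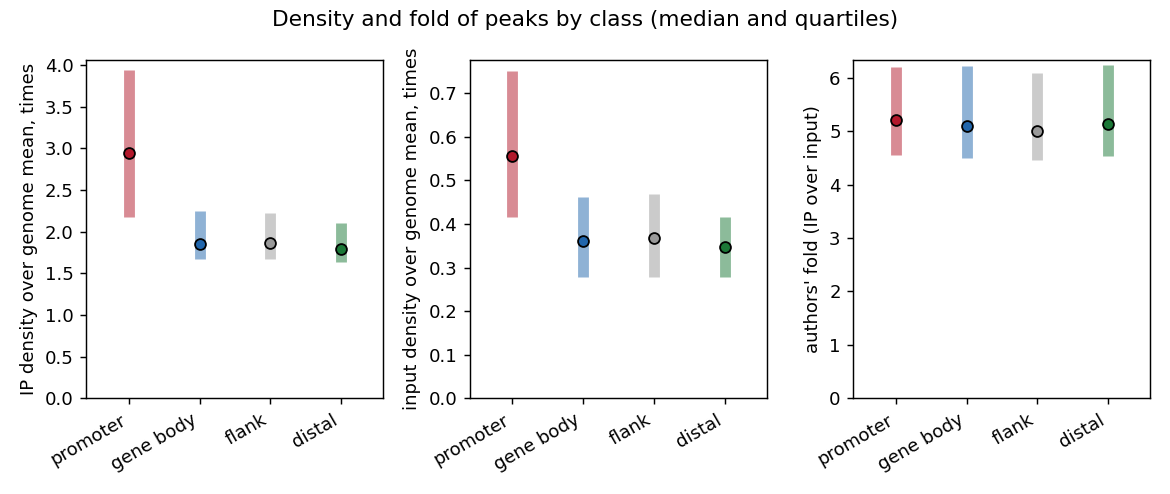
Median (point) and quartiles (bar) over peaks of IP density over the IP's genome mean, input density over the input's genome mean, and the authors' fold, for promoter, gene body, flank and distal peaks. Promoter peaks are higher in both densities (medians 2.95 and 0.556 times the mean), while the median folds lie between 5.01 and 5.21.

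The makeup of the peaks changed along the whole range of density. When peaks were divided by density into 10 classes of equal size, promoters made up 9.03% of the lowest class and 80.7% of the highest, and distal DNA 22.7% and 2.19%. Gene bodies fell from 56.0% to 14.4% of peaks. CpG dinucleotides rose from a median of 1.40 to 7.25 per 100 bp and GC content from 49.6% to 61.6%, against 0.70 and 41.7% in 1 kb windows of chromosomes 1 to 19. Median input was 0.278 times its mean in the lowest class and 0.898 times in the highest, and the median fold 5.58 and 5.30, both bounded by the same limit on the fold. In the lowest class 86.8% of peaks had fewer than 3 input tags, and in the highest none had.

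Peaks near starts were centred close to the nearest start site. Of all peaks, 10069 (35.7%) were centred within 1 kb of a protein-coding transcript start, at a median offset of 2 bp with quartiles of 110 bp upstream and 126 bp downstream, and 48.8% of them lay upstream. Taking the nearest of several transcript starts draws these offsets toward the start. With 1 start per gene, coverage was highest 100 bp downstream over all starts (35.7%). In the CpG-richest of the 5 classes described below it was highest 100 bp upstream (65.1%). Of 20780 protein-coding genes, 9088 (43.7%) had a peak within 1 kb of the gene's start. Genes were sorted into 5 equal classes by CpG density over 500 bp, from 450 bp upstream of the start. The share was 3.95% in the lowest class, 18.99% and 51.2% in the next 2, 70.2% in the one after and 74.3% (73.0% to 75.6%) in the highest. CpG-rich starts are those of CpG islands, which mark housekeeping and developmental genes and are mostly free of DNA methylation. The density of the peaks that were there rose too, from a median of 7.99 per kb in the lowest class to 13.5 in the highest, with input at 0.417 and 0.643 times its mean.

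**Figure D2:**
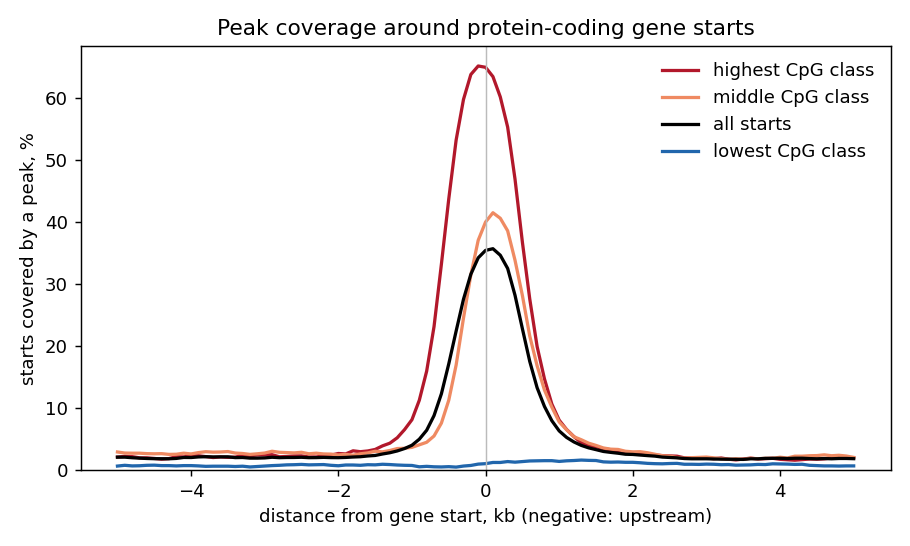
Share of protein-coding gene starts covered by a peak (vertical axis, %) against distance from the start (horizontal axis, kb), for all starts and for the lowest, middle and highest of 5 classes by CpG density. Coverage at the start itself was 35.4% over all starts, 64.9% in the highest CpG class and 1.06% in the lowest.

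Starts that face a second gene were covered more often. Of 1443 starts with the start of another coding gene on the opposite strand within 1 kb upstream, 81.8% (79.8% to 83.8%) had a peak, against 40.9% of the 19326 others. These starts had a median of 7.2 CpG per 100 bp against 2.8, and within the highest CpG class the shares were 88.1% (85.8% to 90.1%) of 850 and 70.8% (69.2% to 72.3%) of 3304. The paired starts share their peaks, so these are not independent counts. Among other annotated gene types, 37.1% of processed transcripts, 24.6% of antisense genes, 12.1% of lincRNA genes and 2.78% of processed pseudogenes had a peak within 1 kb of the start, with overlapping coding starts left in.

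The share of peaks with short sequence motifs differed by class for some motifs. Each was counted on both strands in the 500 bp around a peak's centre, beside 500 bp at 20796 coding promoters and 2395567 windows of that length along the chromosomes. The GC box GGGCGG, bound by Sp1 and Klf factors, was in 71.7% of promoter peaks, 26.7% of gene body peaks and 17.2% of distal peaks, against 47.1% of all coding promoters and 4.71% of windows. The Ets letters CCGGAAG were in 19.2% of promoter peaks against 12.7% of coding promoters, the Nrf1 letters GCGCATGC in 6.28% against 3.94%, and the YY1 letters ATGGCGGC in 6.72% against 3.02%. All 4 motifs contain a CpG, and promoter peaks had a median of 6.06 CpG per 100 bp.

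The TATA box letters TATAAA went the other way, in 7.78% of promoter peaks against 22.4% of coding promoters and 40.1% of windows. CCAAT, bound by NF-Y, was in 47.1% of promoter peaks, 42.4% of gene body peaks and 46.2% of distal peaks, beside 53.1% of coding promoters and 56.8% of windows. For 3 motifs read by factors of the pluripotency network, the shares in gene body and distal peaks were above those in promoter peaks. TCAAGGTCA, read by the nuclear receptor ESRRB, was in 0.782% of promoter peaks, 2.302% of gene body peaks and 2.01% of distal peaks, against 1.09% of windows. The octamer ATTTGCAT, read by POU5F1, was in 1.92%, 2.81% and 4.25% of the same classes, against 4.27% of windows. GGGTGTGG, a Klf site, was in 6.65%, 8.58% and 9.37%, against 3.04%. The E-box CACGTG, read by MYC and USF, was in 13.9% of promoter peaks and 10.2% of distal peaks, against 10.6% of coding promoters and 4.94% of windows. The CREB letters TGACGTCA were in 3.33% of promoter peaks and 0.523% of distal ones, against 2.645% of coding promoters. Both motifs also contain a CpG.

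The single highest peaks lay where input was high as well, which is the main caution on ranking sites by tags per kb. Over all peaks 892 (3.16%) had input above its genome mean, 23 above 2 times and 4 above 5 times. Among the 100 peaks of highest density 89 were above the input mean, and 23 above 2 times it. All 20 of the highest 20 were above it. Of those 100 peaks, 82 were promoters, 8 gene body, 5 flank and 5 distal. Ranking by the authors' fold gave a different 100, with 0 in common. Each of these had fewer than 3 input tags, with a median of 0.5, and their median density was 6.90 per kb. The ranking by density thus favoured sites of high input, and the ranking by fold sites with almost no input.

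**Figure D3:**
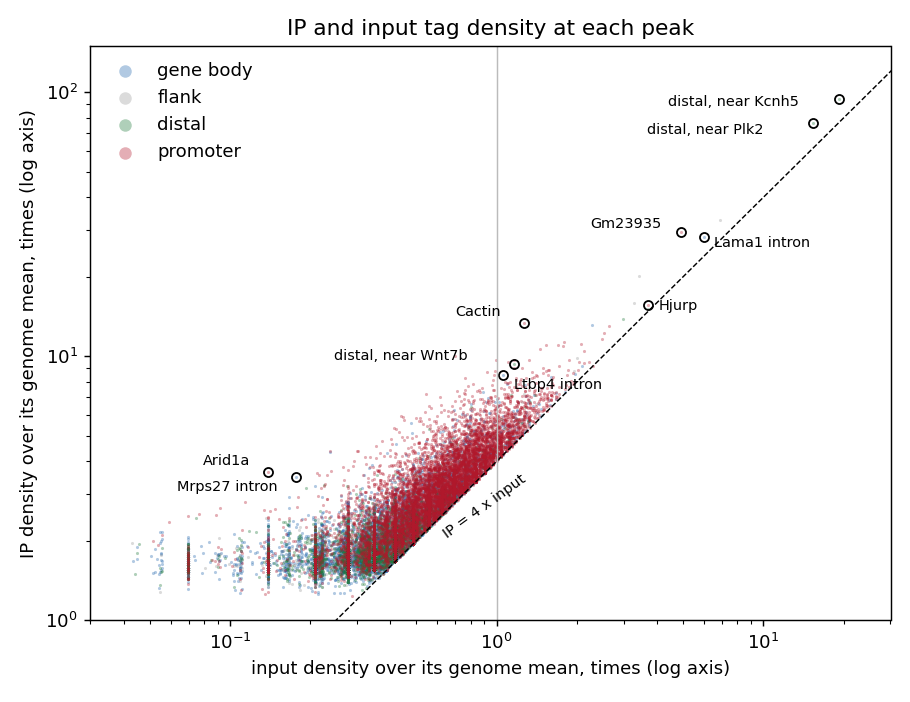
IP density over its genome mean (vertical, log axis) against input density over its genome mean (horizontal, log axis), 1 point per peak, coloured by class, with a line where IP is 4 times input and a vertical line at the input mean. The peaks of highest IP density, near Kcnh5 and Plk2 at 94.3 and 76.7 times the mean, lie at 19.3 and 15.4 times the input mean.

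Among promoters the highest density, 112.0 per kb (104.0 to 120.4), was at Gm23935, an annotated miRNA gene inside Zc3h7a on chromosome 16 (11143738 to 11144490). It had 53 input tags, 4.90 times the input mean, and a fold of 6.05 (4.58 to 8.16). Hjurp, the chaperone that loads the centromeric histone CENP-A, followed with 59.2 per kb at 3.68 times the input mean and a fold of 4.26. Both peaks thus had input far above the 0.556 of the median promoter peak.

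Next was Cactin, a spliceosome-associated factor, at 50.5 per kb (47.1 to 54.1) from 822.1 IP tags (chromosome 10, 81319949 to 81321820). Its 34 input tags put input at 1.26 times its mean, and its fold of 10.6 (7.52 to 15.4) was the highest of the 6 densest promoter peaks. The peak lay 0.219 kb upstream of the Cactin start, in the stretch printed above. Tmem259 and the snRNA gene Gm26243, which share a peak, had 49.2 per kb at 2.63 times the input mean. Alkbh5, an RNA demethylase for N6-methyladenosine, had 46.4 at 2.54 times, and Ocel1 had 44.1 at 2.49 times.

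With input at most 1.5 times its mean, a limit set after the values were seen, the next promoters after Cactin were named. Osbp, an oxysterol-binding lipid transporter, had 40.3 per kb with a fold of 7.34. Hdgfl2, a chromatin reader, had 38.01 with a fold of 14.4 (lower bound 8.84) at 0.699 times the input mean. Izumo4, whose peak also covers the start of Mob3a, had 36.7 and a fold of 8.36, and the translation factor gene Eif5a had 36.5 and 7.30. The somewhat denser Tmem259, Alkbh5 and Ocel1 promoters had folds of 4.70 to 4.95, with input at 2.49 to 2.63 times its mean, above that limit. A high IP density with limited input fixes a high fold, so the larger folds of the promoters named here follow from the limit.

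Promoters with fewer than 3 input tags were led by Arid1a, a subunit of the BAF chromatin remodeller, with 13.8 per kb (10.5 to 17.8). It had 60.0 IP tags and 1 input tag, so its fold of 26.3 had an interval of 4.54 to 1055.7. Atg4d, an autophagy protease, had the same density with 2.5 input tags and a fold of 10.5 (3.14 to 64.9), and the kinase gene Map4k4 had 12.4 per kb and 9.46 (2.81 to 58.6). Their IP density was 3.29 to 3.65 times the genome mean, against a median of 2.95 for all promoter peaks, and their overlapping intervals do not order the folds.

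In gene bodies the densest peak was in an intron of Lama1, the laminin α1 chain of basement membranes, 44.0 kb from the start (chromosome 17, 67740985 to 67741485). It had 107.4 per kb (97.9 to 117.6), 5.97 times the input mean and a fold of 4.76, with 0 CpG and 50.1% repeat sequence. An exon of Angptl6 had 49.6 at 2.29 times the input mean, an intron of Nol4l 34.8 at 2.08 times, an exon of Sox12 32.4 at 1.97 times and an intron of Ptma, the prothymosin α gene, 31.6 at 1.60 times. The Ltbp4 intron, in a gene for a TGFβ-binding matrix protein, differed from these. It had 32.2 per kb with input at 1.06 times its mean and a fold of 8.05 (4.99 to 13.9).

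Apart from the one in Lama1, these gene body peaks lay 1.35 to 3.91 kb from the coding start of their gene and were GC-rich. With input at most 1.5 times its mean, Ing1, a reader of the promoter mark H3K4me3, had 29.6 per kb over 3599 bp, and Kpnb1, importin β, had 29.5. The Kpnb1 peak was centred just past the downstream end of the promoter window. The synaptic adhesion gene Lrrc4b had 27.6 and Zfp771 27.0. Gene body peaks of fewer than 3 input tags were led by an intron of Mrps27, a mitochondrial ribosomal protein, with 13.2 per kb, 2.5 input tags and a fold of 19.6 (5.99 to 119.9). Fbxo41 followed with 12.2 and 1.5 input tags, and Necab2 with 11.1 and 2.

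Along genes of at least 20 kb, gene body signal was heaviest near the start. Of the pairs of a gene and a body peak, 19.13% lay in the first of 10 equal parts of the gene, with 27.3% of the tags. Peaks in promoter windows were left out, but these windows end 100 bp after a start. Peaks over a start but centred just past that limit thus count in the first part, and the parts were not recomputed with a wider window. The parts after the first held 8.12% to 9.85% each, and the last held 10.6%. Beyond the first part the peaks were thus spread nearly evenly.

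Distal DNA held the 2 densest peaks of the map, and both were high in the input too. The peak 372.7 kb from its nearest coding start, that of Kcnh5 (chromosome 12, 74804378 to 74804878), had 178 normalized tags in 500 bp, 356.0 per kb (338.5 to 374.2). Its input was 139 tags, 19.3 times the mean, and its fold 4.88 (4.10 to 5.85). The peak nearest Plk2, 346.4 kb away, had 289.8 per kb at 15.4 times the input mean and lay 81.0% in repeats. Peaks nearest Gm21060 and Sfi1 had 57.1 and 52.2 per kb at 3.68 and 2.99 times the input mean. None of those 4 sites had a fold above 4.98. Distance to a gene does not tie a distal peak to it, and the names here only place the sites.

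The distal peak nearest Wnt7b, a Wnt ligand, was unlike them. It lay 52.2 kb upstream of the Wnt7b start with 35.4 per kb (31.6 to 39.5), input at 1.16 times its mean and a fold of 8.05 (4.95 to 14.0), in GC-rich DNA of 6.20 CpG per 100 bp. Slc38a2, a glutamine transporter gene, was nearest to a peak of 26.9 per kb, 10.0 kb upstream. Glis2 was nearest to one of 26.9 per kb at 1.13 times the input mean, and the cyclin E1 gene Ccne1 to one of 24.3 at 0.799 times with a fold of 8.07. The Ccne1 site was thus the only one of these 4 with input below its mean. Distal peaks of fewer than 3 input tags were led by those nearest Prrc2b (11.9 per kb), Msl1 (10.2) and Tra2b (10.0).

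Most distal peaks were near the lower end of the map. Of them 57.8% lay 5 to 20 kb from the nearest gene and 2.68% more than 100 kb away. Median density was 6.90 per kb at 5 to 10 kb and 6.78 beyond 100 kb, and CpG fell from 1.40 to 0.998 per 100 bp. In distal DNA 43.0% of peaks had fewer than 3 input tags, against 11.1% in promoters, so the fold of a distal peak more often rested on few input tags. The limit on the fold bears on these shares too, since a peak of low IP density could enter only at low input.

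Summed per gene, the signal was spread widely. Normalized tags were added over the peaks centred in the gene or within 5 kb, so a peak between neighbours counted for each. Of the 20780 protein-coding genes, 12994 (62.5%) had a peak, 6312 of them a single one and 112 at least 10. The median total was 6.44 normalized tags over all genes and 14.6 over those with a peak. In 38.1% of the genes with a peak all tags came from promoter peaks, and 27.8% had no promoter peak. Promoter peaks here include those at the starts of neighbouring genes, so these shares do not describe the gene's own promoter alone. Totals rose with length: of 5 equal classes by length, 42.6% of genes in the shortest had a peak and 76.7% in the longest, with median totals of 0 and 10.5. Across genes, which are not independent, total and length had a Spearman rho of 0.247, while the highest density and length had −0.0724.

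The 2 largest sums were those of annotated genes that hold many others. Gm20388 on chromosome 8 spans 71 other coding genes and summed to 1378.8 tags over 188 peaks, Fgfr2 as annotated over 2961 kb spans 29 and had 415.8, while Gm37240 and Gm42416, which also hold more than 5 others, had 105.8 and 105.1. Without such loci, Gse1, a coiled-coil protein found with histone deacetylase complexes, had the highest total, 224.0 tags over 26 peaks (chromosome 8, 120228456 to 120581390). Its largest peak, at an internal promoter, held 20.5% of that. Camta1, a calmodulin-binding transcription activator of 944.6 kb, had 153.9 over 19 peaks, of which 20.8% was at its start and 20.1% at the Vamp3 promoter. Both totals were spread over more peaks than in the other 8 of the 10 genes.

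Other high totals rested on 1 or a few peaks. Pip5k1c, which makes phosphatidylinositol 4,5-bisphosphate, had 177.6 tags, of which 53.2% was the Cactin promoter peak at its far end and 18.7% its own promoter. Ppp2r3d, a regulatory subunit of protein phosphatase 2A, had 170.1, with 73.6% in a promoter peak of 3435 bp near the far end of the gene. The annotated start nearest to that peak was an internal one of Ppp2r3d, with input at 0.991 times its mean and a fold of 9.74. No peak lay within 1 kb of the gene's own start. Crlf2, the TSLP receptor subunit, had 158.3 in a single peak of 9645 bp, the longest on the map, at 0.551 times the input mean with a fold of 7.89. Its nearest annotated start was that of Gm8493. In these 3 genes input at the leading peak was 0.551 to 1.26 times its mean.

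The other high totals came from the gene's own promoters in some cases and from a neighbour's in others. Ppfia3, a liprin of synapses, had 153.4 over 7 peaks. Cic, the Capicua repressor of ERK target genes, had 152.1 over 8, with 28.1%, 24.98% and 23.6% at 3 of its own promoters. Mnt, a MAX-binding repressor, had 151.7, with 72.6% in a peak of 4500 bp at its start. Sphk2, which makes sphingosine 1-phosphate, had 130.9, of which 60.0% was a peak at Dbp, and Zc3h7a had 129.5, of which 65.0% was the Gm23935 peak at high input. With peaks above the input mean left out, an alternative chosen after the values were seen, 6 of the 10 highest genes (loci that hold others included) kept their place among the 10, Gse1, Ppp2r3d, Crlf2 and Camta1 among them.

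**Figure D4:**
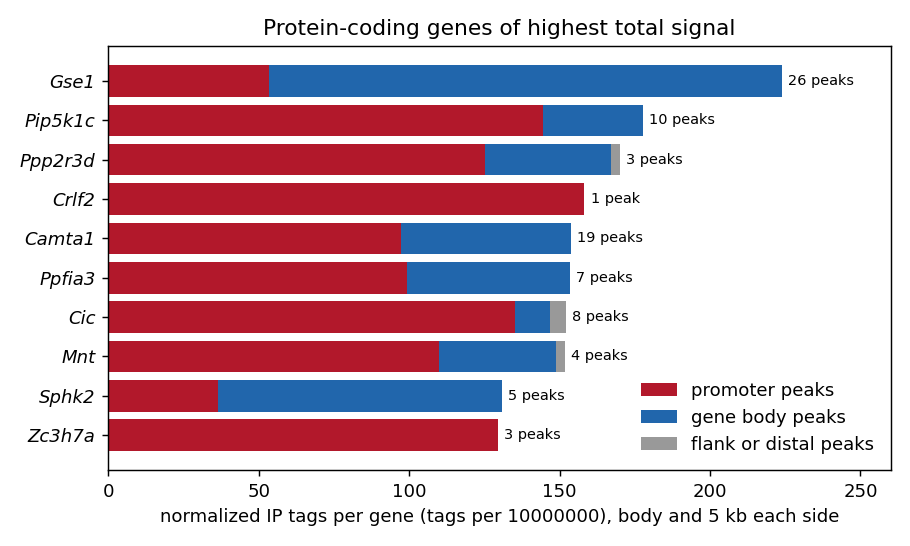
Total normalized IP tags per gene (horizontal axis) of the 10 protein-coding genes of highest total, without genes that hold more than 5 others, split by the class of the peaks, with the number of peaks beside each bar. Gse1 is mostly gene body signal over 26 peaks. Crlf2 is 1 peak that spans the gene, classed as promoter by its centre, and the nearest annotated start is that of Gm8493.

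Per kb of gene, among genes of at least 5 kb, Cactin led with 20.8 tags per kb, 88.3% of it from its promoter peak. Dbp, a circadian PAR bZIP activator, had 17.5 and Sphk2 15.3, both mainly from the same peak of 4533 bp at 1.04 times the input mean. Vegfb, a growth factor, had 15.2, of which 76.2% was a promoter peak of its neighbour Fkbp2 at 1.79 times the input mean. Atp5d, the δ subunit of ATP synthase, had 14.6, of which 59.1% was at the Midn promoter and 32.0% at its own. Ing1 had 13.9 from 1 peak over its start region. In 3 of these 6, then, the larger part came from a peak at another gene's start. Tdg itself had 1 peak at its start with 20.9 tags, all of its total, 33.4 per kb at 1.55 times the input mean and a fold of 5.68 (3.31 to 10.6).

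Peak numbers differed between chromosomes. Peaks per Mb ran from 7.12 on chromosome 14 to 21.8 on chromosome 11 and followed the number of coding genes per Mb, with r = 0.840 and rho = 0.846 over 19 chromosomes, given as a description. Of 2473 windows of 1 Mb, 18.2% had no peak, and the 25 with most tags held 9.21% of all tags. The first was chromosome 10 from 80000001 to 81000000 with 100 peaks and 53 coding starts, and the next, on chromosome 7 from 45000001 to 46000000 with 109 peaks and 67 starts, held Ppfia3, Sphk2 and Dbp.

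Gene lists were read against 62.5% of all coding genes with a peak in the body or within 5 kb and 43.7% with one at the start. Of 19 lists, 17 had a larger share than all genes. Their members differ from other genes in length and CpG content, and they were not matched for either. Of 24 naive pluripotency genes on these chromosomes, 23 had a peak and 14 had one at the start, with a median total of 21.5 against 6.44. At a fold of at least 6 it was 7 of 24, or 29.2%, beside 27.9% of all coding genes. Trim28, a corepressor of retroelements, had 121.6 tags over 5 peaks. Promoter peaks held 105.7 of these, but none lay within 1 kb of the start of Trim28 as annotated over 31.9 kb. The nuclear receptor gene Esrrb had 66.9 over 11 peaks, none of them in a promoter window, and Fgf4 53.01 over 4. Pou5f1 had 40.4, Sox2 21.1 and Nanog 23.6 tags, and Dppa3 had no peak. Of these totals, 28.97 tags at Pou5f1 and 20.6 at Nanog came from flank or distal peaks. Neither gene had a peak within 1 kb of its start, while Sox2 did. Primed epiblast genes had 13 of 15, with Etv5 at 83.2, Etv4 at 27.8 and Spry4 at 22.8, and no peak at Fgf5 or Sall2.

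Signalling lists stood in the same range. FGF and ERK pathway genes had 23 of 25, led after Fgfr2 by the kinase gene Map2k2 with 92.2 tags and Etv5. Braf was among those with no peak. Wnt pathway genes had 21 of 24, led by the β-catenin kinase gene Gsk3b with 81.6 tags and up to 32.9 per kb, Dvl2 with 60.1 and Axin2 with 38.9. The 3 without a peak were Dvl1, Nkd1 and Tcf7.

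Genes of general function were covered almost throughout. All 35 ribosomal protein genes had a peak, 26 at the start, with a median total of 16.7 in spite of a median length of 3.24 kb, and Rpl18 (58.8) and Rpl35 (42.3) were among the highest. All 20 glycolysis genes had one, led by Gpi1 (54.2), Pkm (46.2) and the glucose transporter gene Slc2a3 (41.2). Housekeeping genes had 21 of 23 with the highest median total of the lists, 31.9, and Tubb5 (63.4), Eef2 (57.1) and Actb (56.97) led them. B2m and Tuba1b had none.

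Repair genes were above the share over all genes in the body and at the start. Base excision and single-strand break repair genes had 24 of 28 with 18 at the start, led by the uracil glycosylase gene Ung (69.0), Parp3 (41.4) and Apex1 (37.2). Parp1, the main sensor of nicks, had 25.1, Ogg1 29.3, Xrcc1 7.24 and Lig3 6.55, and Polb, Parp2 and Neil3 were among those with no peak. Homologous recombination and Fanconi genes had 24 of 28 with 23 at the start, led by Fancc (56.6), Fancg (47.7) and Fancm (42.7). Targets of p53 had 16 of 18, led by Bbc3 (52.1), Gdf15 (44.2) and Trp53 itself (38.4).

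Chromatin lists split by kind. DNA methylation and demethylation genes had 22 of 24 and 13 at the start, or 54.2% against 43.7% of all genes. Trim28, Uhrf1 (56.8) and Mbd3 (48.8) were highest. Tet1, which oxidises 5-methylcytosine, had 31.3 tags over 6 peaks and Tet2 16.1 over 4. Subunits of polycomb complexes had 18 of 21, led by Cbx7 (79.6 over 10 peaks), Pcgf2 (54.1) and Phf1 (51.9). Their developmental targets, mostly silent in embryonic stem cells, had 37 of 50 and 21 at the start, or 42% against 43.7% of all genes, though their starts had a median of 5.6 CpG per 100 bp against 3 over all genes. The highest were Irx5 (35.3), Olig2 (33.3) and Lmx1b (31.1), and Cdx2, Gata6 and Twist1 were among the 13 without a peak. Imprinted genes had 26 of 32, with Usp29 (76.5) and Peg3 (69.0), which share a peak, and Gnas (62.6) highest.

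By peaks in the body or within 5 kb, the fibroblast and germline lists were lowest. Fibroblast genes had 5 of 15 with a peak, led by Fn1 (38.6), Col1a1 (23.1) and Pdgfrb (7.47), and germline genes had 10 of 22, led by Tex19.1 (17.6), Hormad1 (17.1) and Hormad2 (13.8). These were the 2 lists below the share over all genes. Extraembryonic endoderm genes had 11 of 16 but 4 at the start, 25% beside 27.3% of germline genes, with Lama1 (84.8, including the intron peak of high input), Sparc (51.3 over 10 peaks) and Cubn (19.9). Neural genes had 10 of 13, led by Olig2, Ncam1 (31.6) and Hes5 (27.1). Large, late-replicating genes had 20 of 25 and 11 at the start, or 44% against 43.7% of all genes. In the longest of the 5 length classes of all coding genes, 76.7% had a peak. Macrod2 (37.6) and Auts2 (29.0) were among the highest of the list, and its median total was 4.94 over a median length of 1448 kb. A peak list holds no expression values, so the markers could not check the cell type.

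**Figure D5:**
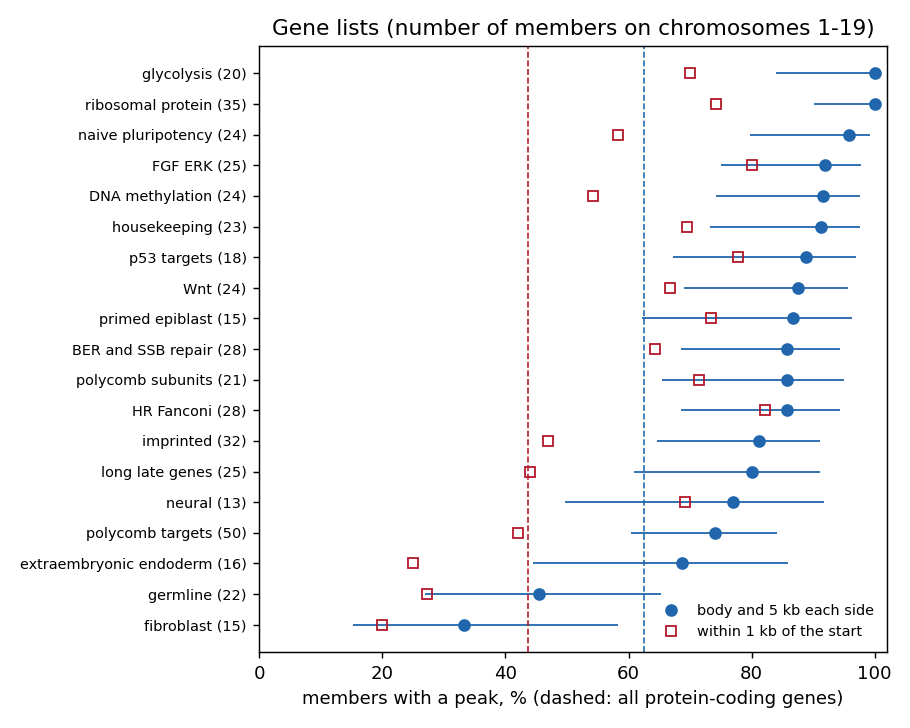
Share of the members of each gene list with a peak in the body or within 5 kb (filled circles, with Wilson 95% intervals) and within 1 kb of the start (open squares), with dashed lines at the shares over all protein-coding genes. Ribosomal protein and glycolysis genes reach 100%, and germline and fibroblast genes lie below the matching line on both measures.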

How the data were processed

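Peaks came from 1 deposited table of the wild type DMSO group, whose 3 IP libraries the authors pooled against 1 input library. Tools credited in the submitters' processing notes, with no role or setting, are HOMER 4.11, Bowtie2 2.3.4.2, R 3.6 and Picard 2.9.2, and the build is mm10. Per the file headers the columns are those of HOMER findPeaks. The signal was deposited by the authors as the normalized tag count, IP tags per 10000000, beside IP tags scaled to the input total and the input tags in steps of 0.5. Per the file headers the authors' fold sets scaled IP tags over input tags, and dividing these columns matched it within 1% for 100% of peaks. The p-value of each peak and HOMER's score and clonal fold were deposited by the authors and ranked nothing here. The largest deposited p-value was 7.14e-05. Coordinates are printed as deposited. The table does not say if its first base is 0 or 1.

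The IP total was worked out from the step of low normalized counts, on which 100% of 17203 values fell within 0.0051, and the input total from the scaled column. The design foresaw 1 value per peak, so counts, medians and shares are descriptions without tests. Intervals at 95% are exact Poisson for tags, exact conditional binomial for folds, Wilson for shares and order statistics for medians. A low count was taken as fewer than 3 input tags. Peaks were annotated with GENCODE M21 on GRCm38, whose chromosome names and lengths matched. Of coding symbols given to more than 1 gene, 27 entries were dropped and the longest gene kept. Repeat share is soft-masked sequence of the reference. Python 3.11.15, numpy 2.4.6, pandas 2.3.3, scipy 1.17.1 and matplotlib 3.10.9 were used, and the annotation, totals and intervals were tested on simulated data.

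Members and gene lists were chosen with earlier results of these data known. Named peaks are, per class, the 6 of highest density with at least 3 input tags and the 3 with fewer. Named genes are the 10 of highest total and the 6 of highest total per kb among genes of at least 5 kb, without those holding more than 5 other coding genes. The 3 highest members of each list and Tdg were named as well, except that some items are not reported here. Other list members named, the next promoters, gene bodies and distal sites with input at most 1.5 times its mean, and members without a peak were chosen after their values were seen. Alternatives were a wider promoter window, coding gene starts only, at least 3 input tags, a fold of at least 6, at most 50% repeat, other rankings, and input at most its mean, the last chosen after seeing the data.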

Additional observations from a re-analysis of the deposited data

Results flagged for a closer look

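Signal outside chromosomes 1 to 19 was large for so few peaks. These peaks enter no count or sum of the report, but their tags are part of the library totals that scale the normalized counts and the genome means. The 4 peaks on the mitochondrial genome summed to 19926 normalized tags, 0.199% of the pooled IP, with 1351 to 6725.5 input tags each and folds of 4.27 to 5.39. The 16 peaks on unplaced or unlocalized contigs summed to 18645 normalized tags, with 2 to 8824 input tags each and folds of 4.04 to 7.48. On chromosomes 1 to 19 the highest input at a peak was 139 tags, below that of all 4 mitochondrial peaks. The part of the high input in these values was not tested.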

How the results depend on the processing

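With 3 pooled IP libraries and no value per library, leaving out 1 library could not be run, and only counting error is known. No paired analysis was possible because the result comes from no test and the pooled values carry no replicate numbers. With at least 3 input tags (19547 peaks), promoters held 39.5% of peaks and 55.6% of tags at a median of 11.8 per kb, gene bodies 38.3%, 29.1% and 7.85, and distal DNA 13.4%, 9.06% and 7.58. With a fold of at least 6 (8095 peaks), promoters held 54.6% of tags at 11.4 per kb, gene bodies 29.98% at 6.66, and distal DNA 9.81% at 6.57. With at most 50% repeat sequence (25272 peaks), promoters held 33.9% of peaks and 52.6% of tags, gene bodies 31.8% of tags, and distal DNA 14.1% of peaks and 9.31% of tags. With input at most its mean (27351 peaks, added after seeing the data), promoters held 29.1% of peaks and 46.4% of tags at 10.7 per kb, gene bodies 44.2% and 34.7%, and distal DNA 11.6% of tags. With a window of 2 kb to 500 bp, promoters held 40.9% of peaks and 60.4% of tags at 10.3 per kb, and gene bodies 34.7%, 23.0% and 6.78. With coding gene starts only, promoters held 16.6% of peaks and 29.4% of tags, and gene bodies 56.3% and 51.5%. In each of these settings where density was recomputed, the median was higher in promoters than in gene bodies and distal DNA.

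Of the 100 densest peaks, 0 were among the 100 highest by fold, and 11 stayed among the 100 densest with input at most its mean. The 11 restate that 89 of the 100 had input above its mean, since that setting removes them. Genes with a peak fell from 12994 to 5802 at a fold of at least 6, since fewer peaks remained. Of the 10 genes of highest total, 0 were among the 10 highest per kb over genes of any length, and 6 stayed with input at most its mean. The median GC content was 54.1% with at least 3 input tags, 52.3% at a fold of at least 6 and with input at most its mean, and 54% in the central 200 bp. Median CpG was 2.75 per 100 bp with at least 3 input tags. The cause of the other shifts was not tested. Of 19 gene lists, 17 were above the share over all genes, and 15 to 16 under the alternatives. The count of members with a peak moved by more than 1.5 times in 17 of the 19 lists at a fold of at least 6 and in 8 with the start window, as did the count over all genes at a fold of at least 6. At that fold germline (18.2%), fibroblast (20%) and neural genes (23.1%) were below the 27.9% of all genes.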

Other observations

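Chromosome X, left out above, held 294 peaks with a median density of 7.30 per kb, beside 7.56 on chromosomes 1 to 19, and its highest peak had 125.8 per kb. Chromosome Y held 2 peaks. No 2 peaks on chromosomes 1 to 19 overlapped.

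By total per kb over genes of any length, histone genes of cluster 1 and cluster 2 were among the 10 highest, with Hist1h4a, Hist1h3a, Hist1h4k, Hist1h4f and Hist2h2ab. Replication-dependent histone genes are short and lie close together, so neighbours share peaks within 5 kb. The mitochondrial ribosomal protein gene Mrpl34 was among the 10 too.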
